A study of Mus musculus with 27 samples.

Results

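Homeostatic microglia genes are the genes that microglia of the healthy brain use most selectively, and 9 of them were followed here: P2ry12, P2ry13, Tmem119, Cx3cr1, Csf1r, Siglech, Sall1, Selplg and Fcrls. They were picked by symbol among the 31053 genes in the count tables, 1 row for each symbol. Their RNA was measured by droplet-based single-nucleus RNA sequencing of frozen mouse hippocampi, with 1 library for each of 27 mice. P301S mice carry a transgene for human tau with the P301S mutation of frontotemporal dementia, driven by the mouse Prnp promoter, a promoter that is active mainly in neurons. Cgas, which encodes a sensor of cytosolic DNA, was deleted in the germline, and therefore in every cell type and not in microglia alone. The tau-free animals comprised 5 of genotype Cgas+/+, of which 2 were female, and 2 males each of Cgas+/- and of Cgas-/-. Mice with tau had the same 3 Cgas genotypes, named here P301S Cgas+/+, P301S Cgas+/- and P301S Cgas-/-, each with 6 animals, equal numbers of either sex. P301S mice were bred with Cgas-/- mice, their offspring were bred further to obtain the 3 Cgas genotypes with and without tau, and the mice were studied late in the first year of life, and each library is 1 animal, so spreads and p-values below are over mice.

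Microglia are the resident macrophages of the brain parenchyma, and they survey it through receptors for nucleotides, chemokines and sialylated sugars. Their survival depends on signals through the receptor that Csf1r encodes, and their identity on transcription factors such as the one that Sall1 encodes. When microglia meet amyloid, tau or dying neurons they commonly lower this set of genes and raise a disease-associated programme in its place.

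The 9 genes lie in several places in the genome (mm10 assembly, GENCODE positions matched by gene ID). P2ry12 (ENSMUSG00000036353, chr3:59216272-59262871) and P2ry13 (ENSMUSG00000036362, chr3:59207892-59210882) are neighbours on the minus strand. Tmem119 (ENSMUSG00000054675, chr5:113793729-113800516) and Selplg (ENSMUSG00000048163, chr5:113818536-113832644) are also neighbours on a minus strand. Cx3cr1 (ENSMUSG00000052336) covers chr9:119901616-120069879, Siglech (ENSMUSG00000051504) chr7:55768178-55778925, Sall1 (ENSMUSG00000031665) chr8:89027235-89044162 and Fcrls (ENSMUSG00000015852) chr3:87250758-87263738. Reads were counted over whole pre-mRNA, introns included. P2ry12 and P2ry13 both lie inside Med12l, which is on the opposite strand, and the Cx3cr1 model holds Gorasp1, Csrnp1, Xirp1 and, on the opposite strand, Ttc21a. Csf1r (ENSMUSG00000024621) overlaps at its 3′ end with Hmgxb3 on the opposite strand, which was at 75.4 ± 9.58 CPM in microglia-like nuclei (SD, n = 27 mice). The strand setting of the counting is not given in the sources used here, so a part of the P2ry12, P2ry13, Cx3cr1 and Csf1r counts may belong to these partners.

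Promoter sequence was available for 6 of the 9 genes, and 4 are shown: the neighbouring ADP receptor genes P2ry12 and P2ry13, and Siglech and Fcrls, whose levels followed the other 8 genes most and least closely across mice. Each run holds the 150 bases before the start site on the gene's own strand (RefSeq, GRCm38.p6). RefSeq starts can differ from the GENCODE positions above: the Fcrls run lies inside the GENCODE model, and the Siglech run reaches into its model. Capitals mark the PU box GAGGAA and the extended ETS core AAGGAAGT, the kind of letters that the myeloid factor PU.1 (Spi1) and its relatives are known to bind, found on either strand.
P2ry12 (chr3:59262986-59263135, minus): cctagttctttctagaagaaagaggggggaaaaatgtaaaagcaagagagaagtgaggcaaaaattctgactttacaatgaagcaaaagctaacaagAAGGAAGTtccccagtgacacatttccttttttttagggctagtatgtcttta
P2ry13 (chr3:59210883-59211032, minus): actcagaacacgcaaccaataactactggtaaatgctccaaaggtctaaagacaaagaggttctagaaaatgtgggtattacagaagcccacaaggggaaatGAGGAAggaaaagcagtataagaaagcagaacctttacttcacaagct
Siglech (chr7:55768034-55768183, plus): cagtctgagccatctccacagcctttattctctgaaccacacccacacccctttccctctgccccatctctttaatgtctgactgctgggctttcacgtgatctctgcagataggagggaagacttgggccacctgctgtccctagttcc
Fcrls (chr3:87263525-87263674, minus): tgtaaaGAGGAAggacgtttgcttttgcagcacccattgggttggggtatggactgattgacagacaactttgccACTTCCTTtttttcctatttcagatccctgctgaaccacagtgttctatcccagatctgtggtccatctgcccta
The ETS letters lie 53 to 46 bases before the P2ry12 start and, on the other strand, 75 to 68 bases before the Fcrls start. The PU box lies 48 to 43 bases before the P2ry13 start and 144 to 139 bases before the Fcrls start, and neither is in the Siglech window. In the 250 bases before the start, 23.3% of 32851 RefSeq promoters held GAGGAA and 1.91% held AAGGAAGT, against 2 of these 6 genes for each. The letters were chosen after the sequences had been read, and a match is a description of the sequence only.

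The libraries held 46091490 to 79484316 UMIs (captured RNA molecules) per mouse. Of 241938 barcodes, 204852 nuclei were kept after filtering (5840 to 12572 per mouse), and 8 to 48 barcodes were shared by any pair of libraries. Nuclei were clustered without the 9 genes and named from markers that do not include them, so the classes below do not rest on the levels described. Microglia-like nuclei numbered 11275 (215 to 1198 per mouse) and gave 266686 to 1921682 UMIs per mouse. Their defining markers were present, with Inpp5d at 3102 CPM (a gene's UMIs scaled to 1000000 UMIs of the class in each mouse) against 1.82 CPM in excitatory neuron-like nuclei, and Ctss at 663 and C1qa at 348 CPM. Some RNA of other cells was there too: Slc17a7 of excitatory neurons was at 40.5 CPM and Mbp of oligodendrocytes at 102 CPM. Cgas RNA in microglia-like nuclei did not follow the number of intact Cgas copies. Without tau it was 32.4 to 36.5 CPM in Cgas+/+, 16.1 to 22.5 CPM in Cgas+/- and 22.1 to 33.2 CPM in Cgas-/- mice, and with tau the means were 37.7, 42.9 and 50.8 CPM in the same order. Whether the counted 3′ reads lie outside the deleted part was not tested, so genotypes below are those of the labels.

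Among the 14 classes, 8 of the 9 genes had their highest mean in microglia-like nuclei. For Fcrls the means were level, with 171 ± 76.6 CPM in microglia-like and 171 ± 204 CPM in macrophage-like nuclei (SD, n = 27 mice). The macrophage-like value rests on 43 UMIs and 1 to 32 nuclei per mouse, with a median of 127 CPM. Of all kept UMIs of each gene, microglia-like nuclei held 93.3% for Siglech, 91.9% for Selplg, 91.8% for Csf1r, 88.2% for Fcrls and 87.2% for Tmem119. The shares were 78.8% for P2ry13, 68.5% for Cx3cr1, 55.7% for P2ry12 and 46.4% for Sall1, although the class held 5.50% of the nuclei and 1.70% of the UMIs. Siglech is a sialic acid-binding lectin and Sall1 a zinc finger transcription factor. These shares are of UMIs pooled over the 27 mice, and the order of the upper 5 genes differed between single mice. Macrophage-like nuclei (145 in all) held 600 ± 463 CPM of Csf1r (SD, n = 27 mice) and 0 UMIs of Sall1, which is known to be absent from macrophages outside the brain. The total of 221263 UMIs in that class allows Sall1 a level of up to 13.6 CPM (3 counts), a limit that covers counting error only.

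**Figure D1:**
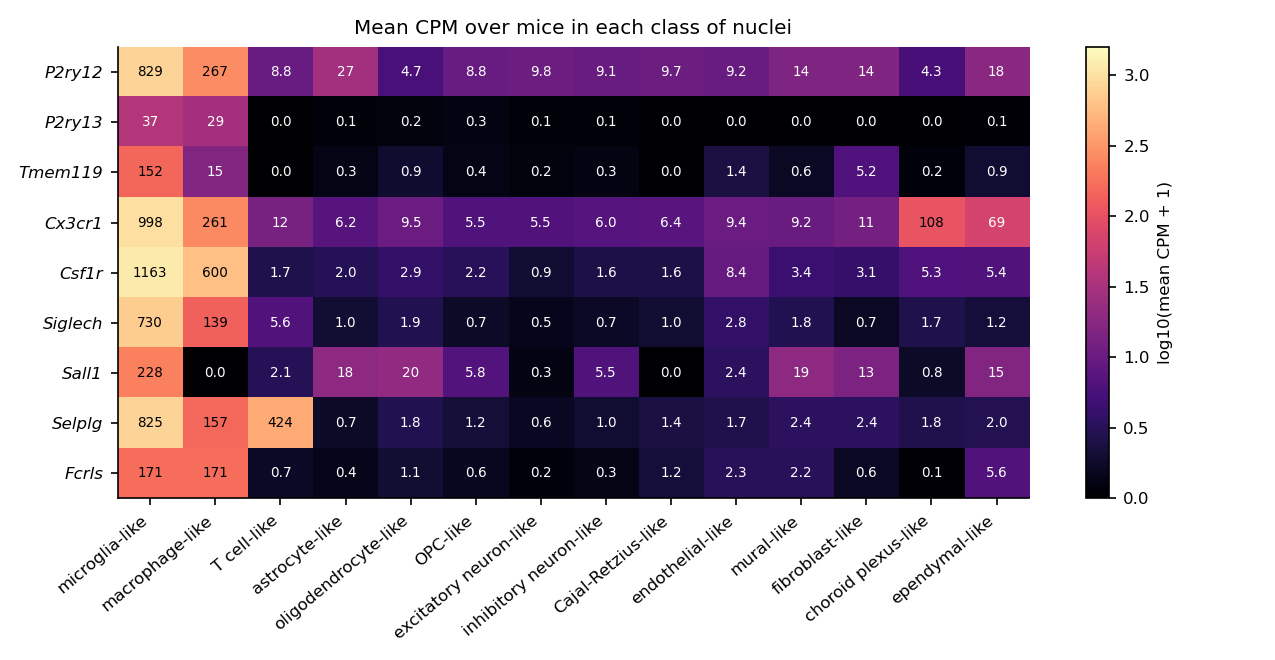
Mean CPM of the 9 homeostatic microglia genes (rows) in each class of nuclei (columns), averaged over the mice with any nucleus of the class; colour is log10(mean CPM + 1). Microglia-like nuclei are highest in 8 rows and level with macrophage-like nuclei for Fcrls. Outside these classes, side signals include P2ry12 in astrocyte-like, Sall1 in astrocyte- and oligodendrocyte-like, Cx3cr1 in choroid plexus- and ependymal-like and Selplg in T cell-like nuclei.

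Outside microglia- and macrophage-like nuclei, counts of 4 genes stood out in another class, and they are described for that reason. Macrophage-like nuclei held P2ry12 at 267 ± 233 CPM, Cx3cr1 at 261 ± 292, Selplg at 157 ± 352 and Siglech at 139 ± 178 (SD, n = 27 mice). Sall1 was at 20.1 ± 4.56 CPM in oligodendrocyte-like nuclei (SD, n = 27) against 0.285 ± 0.111 CPM in excitatory neuron-like nuclei. It was higher in the former in 27 of 27 mice. Sall1 was also at 18.8 CPM in mural-like, 18.4 CPM in astrocyte-like, 14.7 CPM in ependymal-like and 13.5 CPM in fibroblast-like nuclei. P2ry12, the ADP receptor that steers microglial processes, was at 27.4 ± 6.45 CPM in astrocyte-like nuclei against 4.71 ± 1.67 CPM in oligodendrocyte-like nuclei, again in 27 of 27 mice. Med12l, its partner on the opposite strand, was at 222 CPM in astrocyte-like and 59.9 CPM in oligodendrocyte-like nuclei, but at 310 CPM in excitatory neuron-like nuclei, where P2ry12 was at 9.76 CPM. Selplg, the ligand of P-selectin that leukocytes carry, was at 297 ± 143 CPM in T cell-like nuclei of the 10 mice with at least 10 such nuclei. Cx3cr1, the fractalkine receptor, was at 98.9 ± 37.7 CPM in choroid plexus-like nuclei of 14 mice and at 57.0 ± 34.7 CPM in ependymal-like nuclei of 19 mice, against 5.52 CPM in excitatory neuron-like nuclei. Ttc21a, which lies inside the Cx3cr1 model on the opposite strand and belongs to cilia, was at 156 CPM in choroid plexus-like and 657 CPM in ependymal-like nuclei, so Cx3cr1 was the lower and Ttc21a the higher in ependymal-like nuclei. Whether reads of Ttc21a entered the Cx3cr1 counts was not tested.

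Levels in microglia-like nuclei were also divided by the length of the gene model, introns included, and then spanned an order of magnitude. Whether UMIs of a gene rise with its length was not tested here, and the order of the genes depended on this scaling. Siglech (67.9 ± 25.2 CPM per kb, SD, n = 27 mice) and Selplg (58.5 ± 23.8) were at the top and within each other's spread. Csf1r followed at 36.9 ± 6.86, then Tmem119 at 22.3 ± 11.96 and P2ry12 at 17.8 ± 5.21 CPM per kb. Sall1 (13.5 ± 3.63), Fcrls (13.2 ± 5.90) and P2ry13 (12.3 ± 5.27) did not differ beyond their spread. Cx3cr1 was lowest at 5.93 ± 1.26 CPM per kb, a value set by an annotated length of 168.264 kb that takes in its neighbours. Without the scaling Csf1r (1163 ± 217 CPM) and Cx3cr1 (998 ± 212 CPM) came first, followed by P2ry12 (828.9 ± 243), Selplg (825 ± 335) and Siglech (730 ± 271). Sall1 (228 ± 61.4), Fcrls (171 ± 76.6) and Tmem119 (152 ± 81.2) were lower, and P2ry13 (36.7 ± 15.8 CPM) was last in that order.

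The nucleotide receptors come first by role. P2ry12 in Cgas+/+ mice was at 1046, 1186, 1004, 883 and 954 CPM, and in P301S Cgas+/+ mice at 402 at the lowest, 710 at the median and 1228 at the highest. Its range in P301S Cgas+/- mice was 462 to 838 CPM with a median of 782, and in P301S Cgas-/- mice 534 to 849 CPM with a median of 789. Replicate 2 of P301S Cgas+/+ was above every Cgas+/+ mouse, and the other 5 were below all of them, as were all 12 P301S mice with 1 or 0 working Cgas copies. The lowest tau-free mouse of any Cgas genotype was at 837 CPM, and 14 of the 18 P301S mice were below it. The mean difference in the P301S Cgas+/+ against Cgas+/+ comparison (the tau contrast) was -0.47 on the log2 scale (SE 0.23, adjusted p = 0.321, edgeR's quasi-likelihood test, 23 mice). P2ry13, a related ADP receptor, was at 36.4, 55.9, 50.3, 79.4 and 56.0 CPM in Cgas+/+ mice. In P301S Cgas+/+ mice it ran from 9.54 over a median of 27.8 to 40.7 CPM, with 4 of 6 below every tau-free mouse. Its log2 fold change of -1.09 (SE 0.31, adjusted p = 0.0941) was the largest of the 9 in the tau contrast.

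The growth factor and chemokine receptors come next. Csf1r, the receptor for CSF1 and IL-34, was at 1155, 1342, 1579, 1524 and 1282 CPM in Cgas+/+ mice and at 710, 1039 and 1371 CPM (lowest, median, highest) in P301S Cgas+/+ mice. Cx3cr1 was at 1022, 1198, 1325, 1321 and 1262 CPM against 613, 889 and 1205 CPM. For both genes 4 of 6 P301S Cgas+/+ mice were below every Cgas+/+ mouse, with replicates 2 and 4 inside the Cgas+/+ range. The log2 fold changes were -0.41 for Csf1r (SE 0.15, adjusted p = 0.154) and -0.45 for Cx3cr1 (SE 0.15, adjusted p = 0.130, edgeR).

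Siglech gave the cleanest separation. It was at 929, 1184, 1002, 880 and 1014 CPM in Cgas+/+ mice, at 1012 and 938 CPM in Cgas+/- mice and at 1172 and 1014 CPM in Cgas-/- mice. In the P301S groups the lowest, median and highest were 286, 516 and 942 CPM with Cgas+/+, 285, 615 and 811 CPM with Cgas+/-, and 350, 618 and 867 CPM with Cgas-/-. Replicate 2 of P301S Cgas+/+ (942 CPM) was the only P301S mouse of 18 inside the range of the 9 tau-free mice. The tau contrast gave a log2 fold change of -0.83 (SE 0.30, adjusted p = 0.162, edgeR). Fcrls, an Fc receptor-like surface protein of mouse microglia, was scattered: 192, 190, 288, 132 and 288 CPM in Cgas+/+ mice against 75.7, 138 and 222 CPM in P301S Cgas+/+ mice, with 4 of 18 P301S mice below every tau-free mouse. Its log2 fold change was -0.71 (SE 0.37, adjusted p = 0.347).

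Tmem119, a transmembrane protein used as a microglial marker, was at 158, 226, 309, 371 and 182 CPM in Cgas+/+ mice and at 47.7, 99.4 and 231 CPM (lowest, median, highest) in P301S Cgas+/+ mice. Selplg was at 1121, 926, 1208, 1377 and 1132 CPM against 418, 497 and 1224 CPM. In both genes replicates 2 and 4 of P301S Cgas+/+ lay within the Cgas+/+ range and the other 4 mice below it. The log2 fold changes were -1.06 for Tmem119 (SE 0.44, adjusted p = 0.240) and -0.80 for Selplg (SE 0.34, adjusted p = 0.239, edgeR). Sall1 was at 214, 265, 206, 194 and 282 CPM in Cgas+/+ mice and at 147, 173 and 287 CPM in P301S Cgas+/+ mice, so the groups overlapped and the difference of -0.24 (SE 0.21, adjusted p = 0.613) was close to its error.

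**Figure D2:**
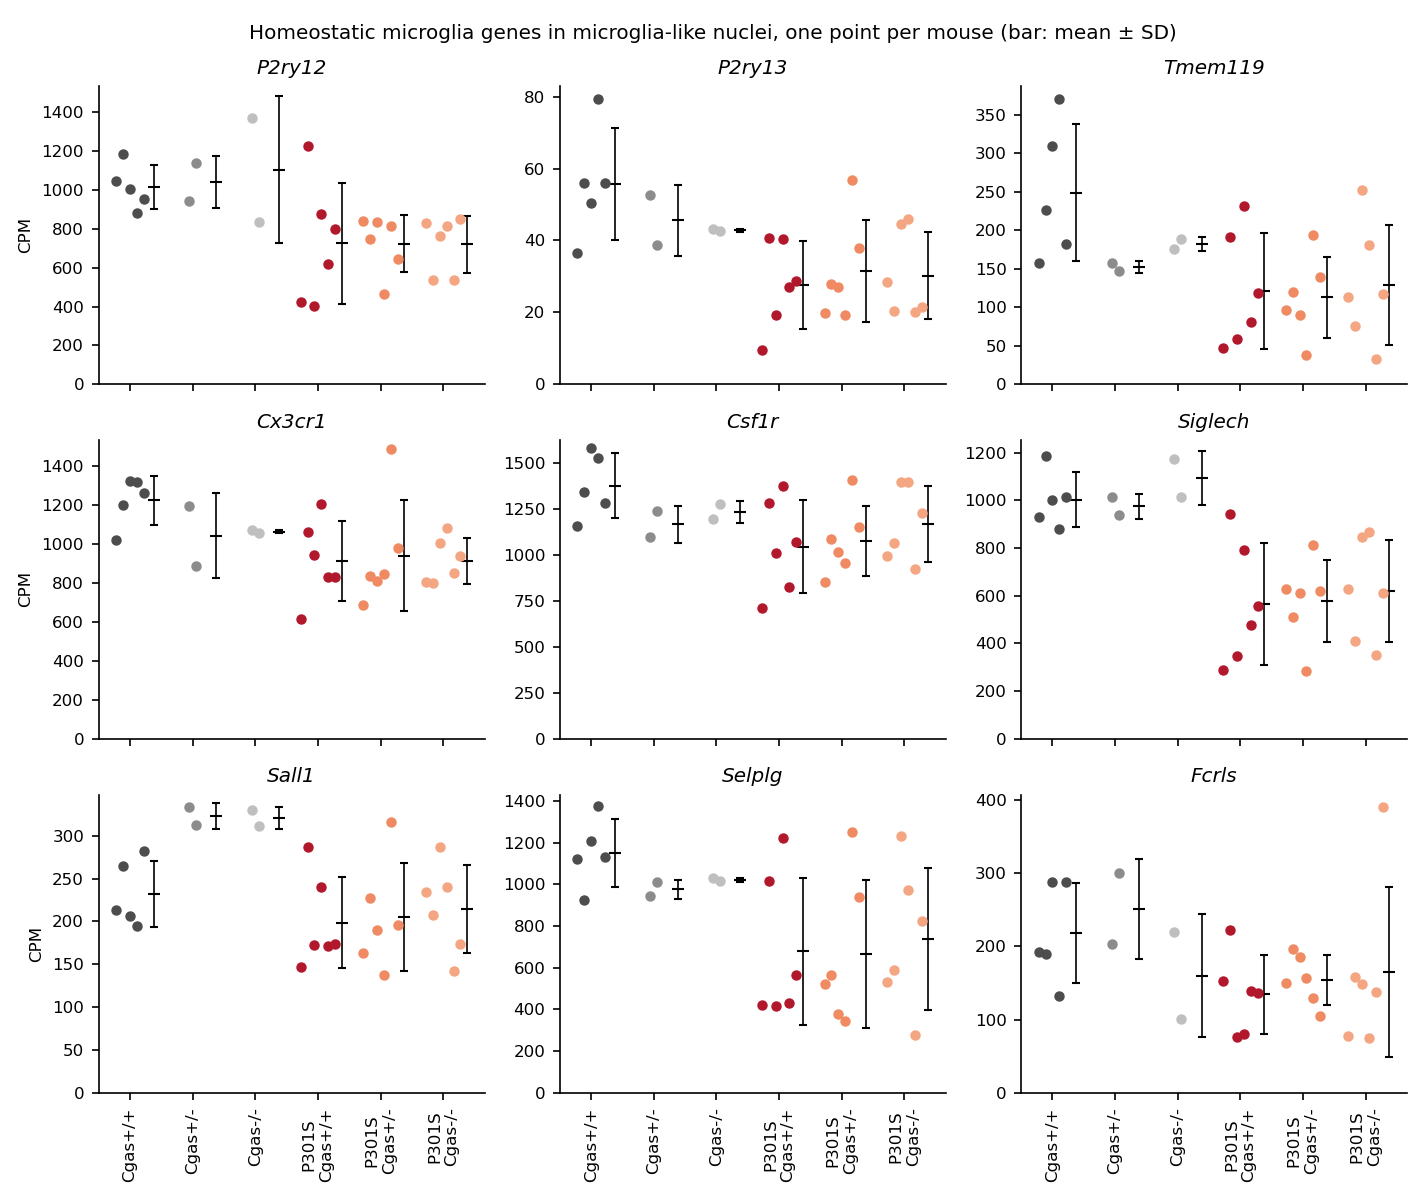
CPM of each homeostatic microglia gene in microglia-like nuclei (y axis, from 0) by genotype group (x axis), 1 point per mouse, with the mean ± SD beside the points. The 3 P301S groups sit lower than the 3 tau-free groups for Siglech with 1 mouse of 18 inside the tau-free range, whereas Fcrls and Sall1 overlap.

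Across the 9 genes, the tau contrast was below 0 for all 9, with a median log2 fold change of -0.71 against -0.01 over the 9108 genes tested. None passed the threshold of an adjusted p of 0.05, and neither did any other gene tested (0% called). At an unadjusted p under 0.05, 6 of the 9 were lower, P2ry12, Fcrls and Sall1 being the others, against 6.23% of all genes lower and 10.1% higher. DESeq2 called 1 of the 9, P2ry13, where 0.158% of genes were called lower, and edgeR without the filter on low counts called 5, where 0.921% were. Without replicate 2 of P301S Cgas+/+, 4 of the 9 passed, against 1.31% of all genes called lower. The CPM of all 6 P301S Cgas+/+ mice was below that of all 5 Cgas+/+ mice for 0.439% of genes and for 0 of the 9.

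All 27 mice were then used to compare the mean of the 3 P301S groups with the mean of the 3 tau-free groups, a comparison added after the values had been seen and sharing its mice with the tau contrast. In it 5 of the 9 genes fell (4.45% of the 9638 genes tested were called lower). P2ry13 fell by 0.88 (SE 0.23, adjusted p = 0.0112), Siglech by 0.86 (SE 0.21, adjusted p = 0.0118) and Selplg by 0.86 (SE 0.24, adjusted p = 0.0238) on the log2 scale. Sall1 fell by 0.52 (SE 0.15, adjusted p = 0.0216) and Cx3cr1 by 0.40 (SE 0.11, adjusted p = 0.0175, edgeR's quasi-likelihood test throughout). Tmem119 (-0.92, SE 0.32, adjusted p = 0.0647), P2ry12 (-0.51, SE 0.18, adjusted p = 0.0624), Csf1r (-0.31, SE 0.10, adjusted p = 0.0506) and Fcrls (-0.44, SE 0.28, adjusted p = 0.348) did not pass. For Sall1 the tau-free groups themselves were unequal: Cgas+/- mice were at 334 and 313 CPM and Cgas-/- mice at 330 and 311 CPM, above all 5 Cgas+/+ mice and 17 of 18 P301S mice. The count of 5 rested on those small groups. It was 2 without replicate 1 of Cgas+/- (256 of 10425 genes called lower) and 1 without its replicate 2 (54 of 10407, or 0.519%). It was 1 without replicate 1 of Cgas-/- (148 of 10212) and 3 without its replicate 2 (209 of 10454). Without replicate 2 of P301S Cgas+/+ the count was 8 (560 of 9795). With the 2 software versions in the file headers as a covariate it was 4 (3.72% of genes called lower), and among males only it was 5 (4.54%).

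**Figure D3:**
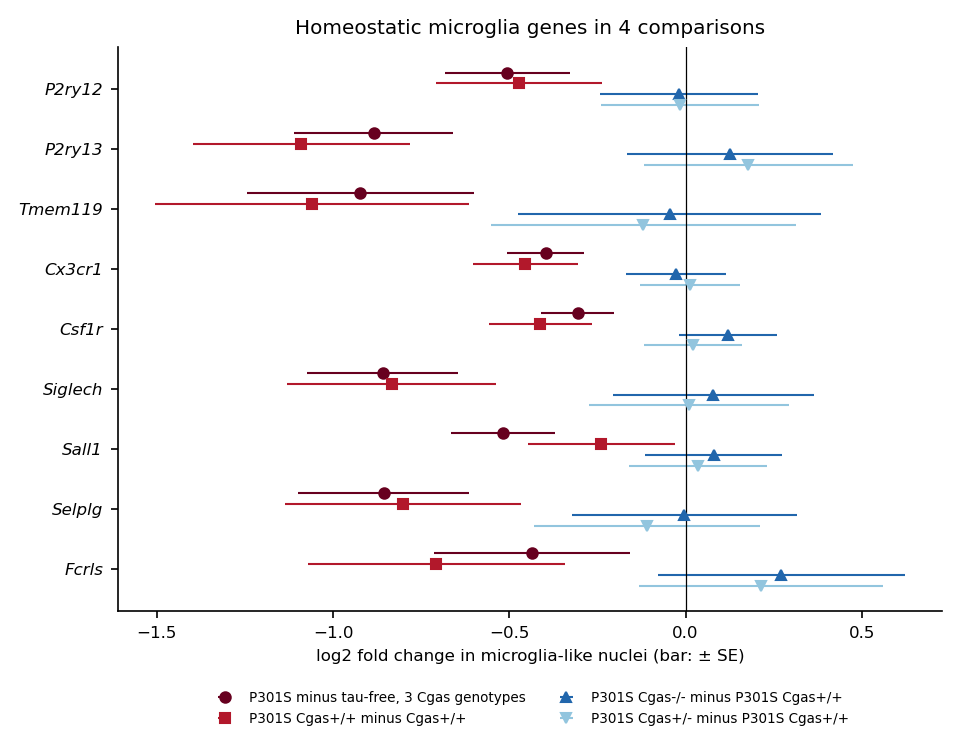
Log2 fold change in microglia-like nuclei (x axis) of each homeostatic microglia gene (y axis) in 4 comparisons, with bars of ± 1 SE from edgeR's fit. Both tau comparisons lie left of 0 for all 9 genes, while both Cgas comparisons within P301S mice lie between -0.12 and 0.27.

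Cgas genotype was compared within P301S mice to ask whether loss of the DNA sensor restores these genes. Both comparisons share the P301S Cgas+/+ mice with the tau contrast. In P301S Cgas-/- against P301S Cgas+/+ mice the 9 genes differed by -0.04 to 0.27 on the log2 scale, with SEs of 0.14 to 0.43. Siglech differed by 0.08 (SE 0.28), P2ry12 by -0.02 (SE 0.22), Tmem119 by -0.04 (SE 0.43) and P2ry13 by 0.12 (SE 0.29). In P301S Cgas+/- against P301S Cgas+/+ mice the range was -0.12 to 0.21, from Tmem119 to Fcrls. No gene of the 9 was called in either, nor was any of the 9108 tested (0% called), and 0 of the 9 had an unadjusted p under 0.05 (deletion 1.67% of genes lower and 1.32% higher, heterozygous 1.01% and 1.41%). DESeq2 also called 0 of the 9 in both (0 of 21510 genes called). With deletion the errors were widest for Tmem119 and Fcrls (SE 0.43 and 0.35) and narrowest for Csf1r and Cx3cr1 (SE 0.14 for both).

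Without tau, Cgas-/- and Cgas+/- mice (2 each) were compared with the 5 Cgas+/+ mice. Sall1 had the largest positive values, 0.48 (SE 0.26) with deletion and 0.47 (SE 0.27) in heterozygotes, and Fcrls the lowest in the deletion (-0.48, SE 0.53). None of the 9 genes was called by edgeR (0% of 9638 genes) or DESeq2 (0 of 21766 genes with deletion, 1 in heterozygotes). None had an unadjusted p under 0.05 either (1.47% of genes lower and 1.14% higher with deletion, 1.39% and 1.25% in heterozygotes). The interaction of P301S with Cgas deletion ran from -0.41 for Sall1 (SE 0.32) to 0.75 for Fcrls (SE 0.64), and none of the 9 was called (0% called by edgeR, none of the 9 by DESeq2 or at an unadjusted p under 0.05, against 1.36% of genes lower and 1.72% higher). The tau contrast did not differ between females and males for any of the 9 at an adjusted p of 0.05. The difference ran from -0.78 for Tmem119 (SE 0.90) to 0.32 for Sall1 (SE 0.43), with 0.022% of genes called by edgeR. DESeq2 called 0 of the 9 (2 of 21510 genes higher and 8 lower). An unadjusted p under 0.05 was reached by 0 of the 9 (3.56% of genes lower, 2.99% higher).

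Other genes of the same biology were read beside the 9, in lists taken from general knowledge. Of 21 further homeostatic microglia genes, all were tested, and 0 were called in the tau contrast, where Olfml3 (-1.14, SE 0.35) and Cst3 (-0.83, SE 0.27) were lower and Tgfbr2 (0.47, SE 0.17) higher. In the comparison over all 27 mice, 7 of the 21 fell (4.45% of all genes did): Crybb1 (-1.60), Upk1b (-1.54), Slc2a5, the fructose transporter (-1.29), Adgrg1 (-0.88), Olfml3 (-0.84), Golm1 (-0.45) and Abi3 (-0.35). Tgfbr2, a receptor for the TGF-beta that keeps microglia homeostatic, rose by 0.50, and the median of the 21 was -0.47. The count of 7 rested on single mice. It was 0 without any 1 of the 2 Cgas+/- or 2 Cgas-/- mice (54 to 256 of all genes called lower). For P301S Cgas-/- it was 1 without replicate 5 (278 genes) and 2 without replicate 2 (309). For P301S Cgas+/+ it was 2 without replicate 1 (326) and 13 without replicate 2 (560). It was 4 without replicate 3 of Cgas+/+ (359) or replicate 2 or 3 of P301S Cgas+/- (330 and 337). The main fit called 429 of 9638 genes lower, and these fits tested 9534 to 10454 genes. Of the 27 fits that each left out 1 mouse, Adgrg1 was not called in 18, Upk1b in 11, Abi3 in 10, Slc2a5 and Golm1 in 9 each, Olfml3 in 6 and Crybb1 in 4, with the fold change below 0 in all of them. Of 8 transcription factors of the lineage 7 were tested, and Runx1 alone was called (0.43, adjusted p = 0.011), while Spi1 differed by -0.17 (SE 0.12) in the tau contrast. In the same comparison, where 7.78% of all genes rose, 14 of 16 tested disease-associated genes rose, among them Axl (4.76), Ccl4 (3.06) and Cd63 (1.69), and so did 16 of 17 interferon genes, among them Trim30a (1.23) and Trim30d (1.08). Without replicate 2 of Cgas+/-, which left 0.519% of all genes called lower and 2.34% higher, these counts were 6 of 16 and 9 of 17, and Tgfbr2, Runx1 and Cd63 were not called. Without replicate 1 of Cgas-/- 9 of the 16 disease-associated genes were called, where 395 of 10212 genes were called higher. In the deletion and heterozygous contrasts 0 genes of any of these lists were called, where 0 of all 9108 genes tested were called (0%).

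Genes that signal to or resemble the 9 were also followed. Csf1, a ligand of the Csf1r receptor, averaged 11.1 ± 5.03 CPM without tau (Cgas+/+, n = 5 mice) but 135 ± 107 CPM with it (P301S Cgas+/+, n = 6) in the microglia-like class, and it rose over the 27 mice by a log2 fold change of 4.18 (SE 0.81, adjusted p = 0.00337, edgeR). Il34, the other ligand, was at 787 CPM in mural-like, 293 CPM in fibroblast-like, 24.3 CPM in inhibitory and 15.4 CPM in excitatory neuron-like nuclei. Its UMIs were mostly in neurons, with 10920 in excitatory and 3131 in inhibitory neuron-like nuclei, against 1871 in mural-like and 1159 in fibroblast-like nuclei. Tgfb1 fell by 0.40 (SE 0.11, adjusted p = 0.0138) in microglia-like nuclei, a call that was lost without replicate 2 of Cgas+/- or replicate 2 of Cgas-/-. Cx3cl1, the ligand of the Cx3cr1 receptor, was at 68.7 CPM in excitatory and 50.6 CPM in inhibitory neuron-like nuclei and was not called in any of the 3 contrasts in neuron- or glia-like nuclei (0 calls by edgeR for the 9 signalling partners listed, where 0.00415% of gene tests were called). Of 18 genes related to the 9 by family, 8 were tested over the 27 mice: Siglecf (2.64) and Siglec1 (3.95), other sialic acid-binding lectins, rose, and Kit (-1.21), a receptor kinase of the Csf1r family, fell. Csf1 and Siglecf were called whichever mouse was left out, while Kit was lost without replicate 2 of Cgas+/- and Siglec1 in 12 of the 25 such fits that tested it.

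The number of the 9 genes seen per nucleus was also averaged by mouse, as a description with no test. Each microglia-like nucleus was reduced to 1000 UMIs, leaving out 496 of 11275 that had fewer, and the number of the 9 genes with at least 1 UMI was averaged over nuclei. It was 3.94 ± 0.13 in Cgas+/+, 3.75 ± 0.09 in Cgas+/- and 3.76 ± 0.22 in Cgas-/- mice (SD, n = 5, 2 and 2). In P301S mice it was 2.89 ± 0.67 with Cgas+/+, 2.93 ± 0.53 with Cgas+/- and 3.04 ± 0.51 with Cgas-/- (n = 6 each). The 9 tau-free mice lay between 3.61 and 4.05, and 15 of the 18 P301S mice were below all of them. The other 3, replicate 2 of P301S Cgas+/+, replicate 5 of P301S Cgas+/- and replicate 3 of P301S Cgas-/-, were inside the tau-free range, so the 2 sets overlapped. Nuclei with none of the 9 made up 0.285% in Cgas+/+ and 4.91% in P301S Cgas+/+ mice. Without thinning the means were 4.58 and 3.91, and P301S nuclei were deeper, with median UMI counts per mouse of 1212 to 1505 in Cgas+/+ and 1435 to 2851 in P301S Cgas+/+ mice. Background in other cells was 0.043 genes per oligodendrocyte-like nucleus and 0.020 per excitatory neuron-like nucleus of Cgas+/+ mice at the same depth. At that depth Csf1r was seen in 66.7% of microglia-like nuclei, P2ry12 in 50.4%, Tmem119 in 13.6% and P2ry13 in 3.83%, so the last is a gene of few UMIs (636 in all microglia-like nuclei).

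Within the microglia-like class, 7 subclusters were told apart without using the 9 genes, and their values are a description with no test. The largest, m0 (4005 nuclei), had the highest levels of 8 of the 9, for example 1054 CPM of P2ry12, 996 CPM of Siglech and 209 CPM of Tmem119. In m3 (1608 nuclei), which carried 12 disease-associated markers and was led by Atp6v0d2, Gpnmb and Myof, these were at 313, 151 and 18.4 CPM, or 29.7%, 15.2% and 8.80% of m0. Csf1r (741 against 1346 CPM) and Cx3cr1 (657 against 1145 CPM) were at 55.1% and 57.4% of m0, and Fcrls (127 against 207 CPM) at 61.6%. Among the 10 mice with at least 20 nuclei in both, m3 was below m0 in 10 of 10 for every gene but P2ry13 and Fcrls, which were lower in 9 of 10. The intermediate m1 (3115 nuclei) was below m0 in 15 of 15 mice for Tmem119, Csf1r, Siglech and Selplg, but in 6 and 7 of 15 for P2ry13 and Sall1. In m5 (224 nuclei, 42.9% of them from replicate 5 of P301S Cgas+/+), which carried 7 disease-associated markers but was led by H2-M2, Slc7a2 and Cspg4, a marker of oligodendrocyte precursors, Siglech was at 664 CPM while Fcrls was at 30.7 CPM and Tmem119 at 28.4 CPM, so Siglech was higher and Fcrls lower there than in m3.

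**Figure D4:**
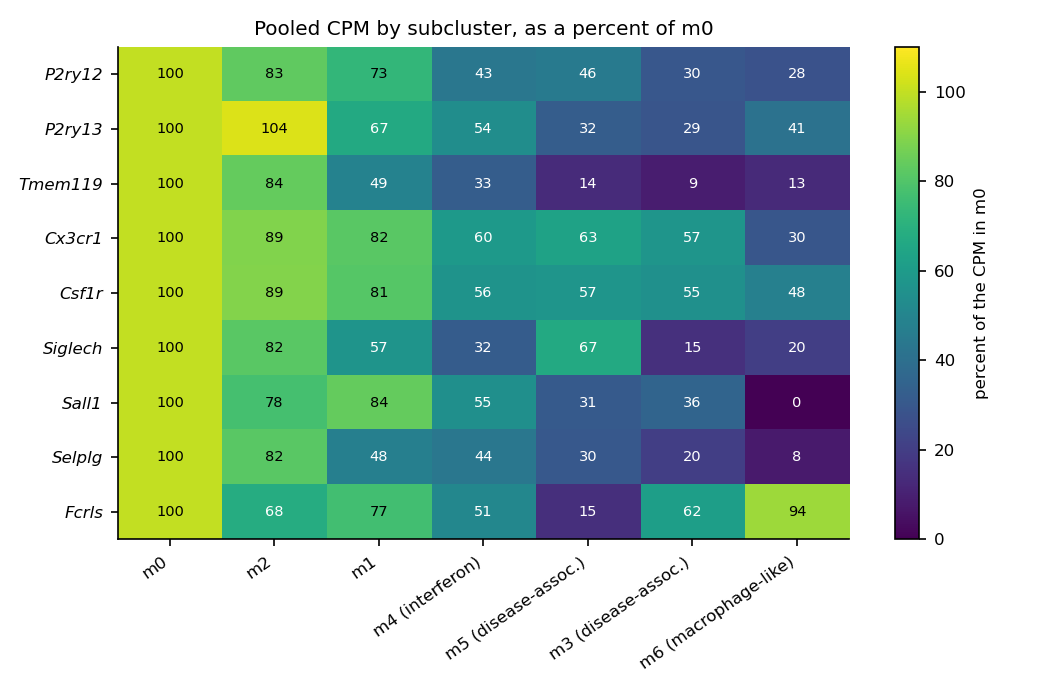
Pooled CPM of each homeostatic microglia gene (rows) in the subclusters of microglia-like nuclei and in macrophage-like nuclei (columns), as a percent of its level in m0. Tmem119, Siglech and Selplg are at 8.80%, 15.2% and 20.5% in m3 and Fcrls at 61.6%; subcluster m7 (51 nuclei) is left out.

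Subcluster m2 (1877 nuclei) had all 10 microglia markers detected but was led by genes of neurons, among them Asic2, Grm8 and Gabrg3, a subunit of a GABA receptor. The 8 excitatory and 8 inhibitory neuron markers summed to 790 and 707 CPM in it, against 520 and 519 CPM in m0, and P2ry12 was at 878, Siglech at 815 and Tmem119 at 176 CPM. It held 36.9% ± 19.7 of microglia-like nuclei in Cgas+/+ (SD, n = 5), 32.5% ± 4.27 in Cgas+/- and 15.1% ± 3.75 in Cgas-/- mice (n = 2 each). In P301S mice its share was 12.2% ± 8.09 with Cgas+/+, 19.6% ± 23.6 with Cgas+/- and 12.8% ± 7.62 with Cgas-/- (n = 6 each), with the ranges overlapping. With m2 left out edgeR called 6 of the 9 over all mice (4.45% of 9216 genes were called lower), the 5 called in the whole class and Csf1r (-0.33, SE 0.11, adjusted p = 0.0429). In the tau contrast edgeR then called 0 of the 9 (0.0235% of genes were called lower), with 8 of the 9 lower at an unadjusted p under 0.05 (6.39% of genes), and no other tool was run.

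Different subclusters held most of the class, m0 and m2 in tau-free mice and m0, m1 and m3 in P301S mice, and m3, m4 and m5 together held 0% to 1.38% of microglia-like nuclei in tau-free and 0.41% to 63.0% in P301S mice. In m0 alone, pooled levels were near each other, with 1108 CPM of P2ry12 in tau-free and 1003 CPM in P301S mice, 203 and 215 CPM of Tmem119, and 1078 and 918 CPM of Siglech. Within m0 edgeR called 0 of the 9 genes in the comparison over all mice (0.449% of 5341 genes were called lower), with log2 fold changes of -0.45 (P2ry13, SE 0.25) to -0.04 (Csf1r, SE 0.09). Siglech (-0.21, SE 0.10) and Sall1 (-0.31, SE 0.13) were lower there at an unadjusted p under 0.05 (5.07% of genes), and no other tool was run. The leading genes of m0 included Myo18b, the gene most correlated with the mean of the 9 across mice (0.97). Similar levels within m0 can therefore come from how m0 was formed, so this fit is no independent test. In P301S Cgas+/+ mice m0 held 2.72% to 78.8% of microglia-like nuclei. Outside the disease-associated and interferon subclusters edgeR called 3 of the 9 in the comparison over all mice (2.5% of 9192 genes were called lower). These were P2ry13 (-0.61, SE 0.17), Siglech (-0.57, SE 0.13) and Selplg (-0.63, SE 0.18), and the other 6 ran from -0.58 for Tmem119 to -0.14 for Csf1r. In the tau contrast outside these subclusters 0 of 7839 genes were called lower and 4 higher, so none of the 9 was called lower. Markers of other cells in microglia-like nuclei moved as well: the 8 macrophage markers summed to 12.1 to 56.0 CPM in Cgas+/+ and 25.4 to 950 CPM in P301S Cgas+/+ mice, carried by Colec12, with Lyve1, Pf4 and Cbr2 at 0 in all mice. The 9 oligodendrocyte markers summed to 260 to 525 CPM and 295 to 946 CPM, and the 8 excitatory neuron markers to 406 to 808 CPM and 278 to 649 CPM. Their part in the levels of the 9 genes was not tested.

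Over the whole hippocampus, summed over all kept nuclei without any class, the picture differed, and in such sums more or fewer microglia cannot be told apart from more or less RNA in each. Csf1r was at 12.5, 17.0, 14.9, 12.5 and 13.2 CPM in Cgas+/+ mice and at 18.2, 25.8 and 37.6 CPM (lowest, median, highest) in P301S Cgas+/+ mice, all 6 above all 5. The log2 fold change was 0.82 (SE 0.30, adjusted p = 0.359, edgeR), and Sall1 followed at 0.63 (SE 0.26, adjusted p = 0.432). Tmem119 (0.02, SE 0.37) and P2ry13 (0.09, SE 0.35) were near 0. None of the 9 was called by edgeR (0.021% of 19074 genes were) or by DESeq2 (279 of 27055 genes called higher and 8 lower). An unadjusted p under 0.05 was reached by 2 of the 9, both higher (2.43% of genes were lower and 6.46% higher). Within P301S mice all 9 were below 0 with Cgas deletion (-0.35 to -0.07) and in heterozygotes (-0.56 to -0.20). In both, edgeR called 0 of the 9 (0% of genes). DESeq2 also called 0 of the 9 (with deletion 8 of 27055 genes higher and 7 lower, in heterozygotes 7 and 3). At an unadjusted p under 0.05 there were 0 with deletion (5.26% of genes lower, 3.86% higher) and 1 in heterozygotes, Selplg at -0.56 (SE 0.25; 3.54% lower, 3.21% higher). Over the 27 mice the 9 ran from -0.33 to 0.35 with 0 called by edgeR (0.712% of 19957 genes were called lower, and 283 genes higher). None of the 9 had an unadjusted p under 0.05 (1350 of 19957 genes lower and 1943 higher). The interaction of P301S with Cgas deletion was below 0 for all 9 (-0.54 to -1.18), with 4 of them at an unadjusted p under 0.05 (5.09% of genes lower, 6.28% higher), 0 called (0% of 19957) and the smallest adjusted p 0.382. Cgas-/- mice without tau were high here, with Siglech at 27.4 and 15.4 CPM against 7.26 to 15.1 CPM in Cgas+/+ mice, and 5.01% and 8.81% of their nuclei were microglia-like. In that contrast Siglech (1.04, SE 0.43), Selplg (0.91, SE 0.38) and Sall1 (0.83, SE 0.34) were higher at an unadjusted p under 0.05 (1.09% of genes higher, 2.84% lower), and 0 of the 9 were called (0%). In tau-free heterozygotes 0 of the 9 reached that level (0.396% of genes higher, 0.887% lower) and 0 were called (0%).

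The share of microglia-like nuclei was compared between the same groups. It was 3.94 ± 0.20% of kept nuclei in Cgas+/+ mice and 6.504 ± 2.09% in P301S Cgas+/+ mice (SD, n = 5 and 6), with 5 of 6 above all 5 (exact two-sided permutation p = 0.0260, adjusted over 3 contrasts 0.0779). As a share of UMIs it was 0.937 ± 0.168% against 2.37 ± 0.775%, with 6 of 6 above all 5 (exact permutation p = 0.00433, adjusted 0.0130). Replicate 3 of P301S Cgas+/+, the exception by nuclei, was at 3.66% of nuclei and 2.99% of UMIs. Its barcodes had the lowest median depth of all libraries (2225 UMIs). Kept nuclei include unnamed ones, 83 to 4437 per mouse, whose part in these shares was not tested. Some clusters came mostly from a single library. This held for 82.1% of 1727 nuclei in a cluster led by Drd2 and Drd3, which was named inhibitory neuron-like. It also held for 68.2% of 920 unnamed nuclei led by Fat2 and Gabra6, and 62.2% of 6942 led by Otx2os1 and Ttr. Their part in the shares and in the whole-hippocampus sums was not tested. P301S Cgas-/- mice (5.85 ± 2.06% of nuclei) and P301S Cgas+/- mice (5.33 ± 2.004%) did not differ from P301S Cgas+/+ mice by more than the spread (exact permutation p = 0.576 and 0.342, adjusted 0.576 and 0.513). Among tau-free mice the share reached 6.91 ± 2.69% in Cgas-/- (n = 2), above the means of all 3 P301S groups. The whole-hippocampus level of Csf1r was higher in P301S Cgas+/+ mice while its CPM within microglia-like nuclei was lower in 4 of 6.

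**Figure D5:**
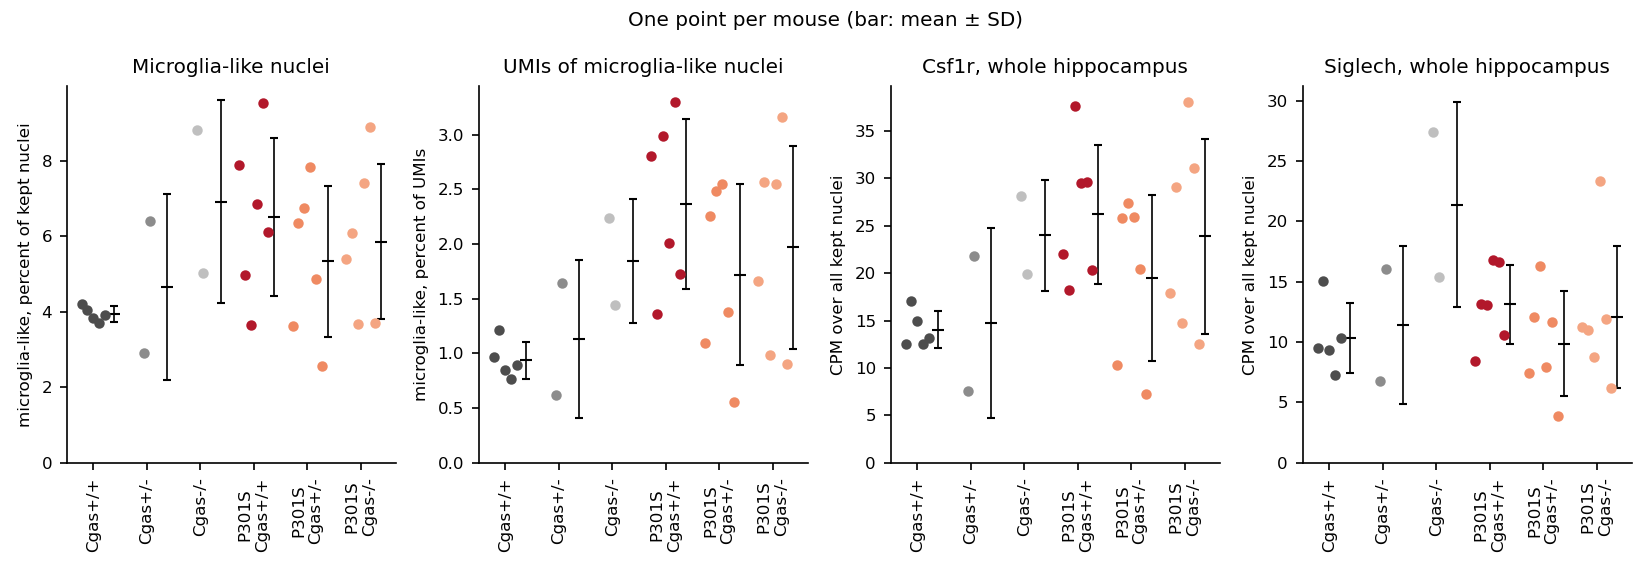
From left to right, the percent of kept nuclei that were microglia-like, their percent of UMIs, and the CPM over all kept nuclei of Csf1r and of Siglech, by genotype group, 1 point per mouse with the mean ± SD. Csf1r in P301S Cgas+/+ mice (18.2 to 37.6 CPM) lies above all 5 Cgas+/+ mice (12.5 to 17.0 CPM), whereas Siglech overlaps.

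Across the 27 mice the 9 genes varied together except for Fcrls. The Pearson correlation of log2(CPM + 1) of each gene with the mean of the other 8 was 0.94 for Siglech, 0.90 for Tmem119 and Selplg, 0.87 for P2ry13, 0.84 for Csf1r, 0.83 for P2ry12, 0.78 for Cx3cr1, 0.76 for Sall1 and 0.20 for Fcrls. Selplg and Tmem119, which are genomic neighbours, had the closest pair (0.93), and Siglech and P2ry12, which are not, the next (0.92). The other neighbours, P2ry12 and P2ry13, were at 0.71. Of the 9108 genes tested, those most like the mean of the 9 were Myo18b (0.97), Bbs9 (0.97), Dip2b (0.97), Chd9 (0.96) and Whrn (0.96), and those most opposite were Myo5a (-0.94), Nceh1 (-0.93) and Osbpl8 (-0.93). The points are mice of 6 groups and share library, depth and the mix of subclusters, so these values describe the sample and carry no p.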

How the data were processed

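Single-nucleus libraries of 27 hippocampi were deposited by the authors as UMI counts per gene and barcode, 1 matrix per mouse, made with Cell Ranger (3.1.0 in the submitters' processing notes; headers give 3.0.2 in 12 libraries, all male, and 3.1.0 in 15) on an mm10 pre-mRNA reference. The members and gene lists were chosen with earlier results of these data known.

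Barcodes outside 200 to 4000 genes or over 5% mitochondrial UMIs were dropped. Then 16429 doublets were removed (Scrublet in scanpy 1.11.5, taking the highest scores at 0.8% per 1000 barcodes). Nuclei were clustered (Leiden in igraph 0.11.9, 2000 variable genes, 30 components, resolution 1), leaving the 9 genes and 21 further homeostatic genes out. A class needed 3 markers. The total of 46091490 to 79484316 UMIs per mouse, and 266686 to 1921682 in microglia-like nuclei, sets the precision.

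UMIs were summed per mouse and class and tested with edgeR 4.0.16 (quasi-likelihood, TMM, filterByExpr, sex as covariate; 23 mice of 4 groups, or all 27), with Benjamini-Hochberg adjustment and a threshold of 0.05. Shares were compared by exact permutation. DESeq2 1.42.0, no filter, other classes of nuclei, other sample sets and leaving out each mouse were alternatives. The pooled comparison of P301S with tau-free mice, the fits with macrophage-like nuclei, in subcluster m0 alone or outside m2, and the levels outside microglia were chosen after seeing the data. On simulated counts for the tau contrast in microglia-like nuclei (8890 genes), 81.6% of changes of 1.5 and 99.0% of changes of 3 on the log2 scale were recovered, with 5 false calls. Changes as small as those of the 9 genes in that contrast (-1.09 to -0.24) were not simulated, so recovery at that size is unknown. Named were all 9 members, the listed genes that passed or else the 3 with the smallest p (of the disease-associated and interferon genes, at most those 3; 1 listed gene is not reported here), and the 5 genes most correlated with the members' mean.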

Additional observations from a re-analysis of the deposited data

Results flagged for a closer look

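Of 76 groups of 5 or 6 mice examined, 4 held a mouse whose gap to its neighbour was large for the range of its group by Dixon's criterion, which chance alone gives in about 1 group of 20. In microglia-like nuclei, Cx3cr1 was at 1490 CPM in replicate 5 of P301S Cgas+/-, with the next mouse at 979 CPM, and Fcrls was at 390 CPM in replicate 6 of P301S Cgas-/-, with the next at 158 CPM. Over the whole hippocampus, Siglech was at 23.3 CPM in replicate 4 of P301S Cgas-/-, with the next at 11.9 CPM, and Selplg was at 26.0 CPM in replicate 4 of P301S Cgas+/+, with the next at 15.5 CPM.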

How the results depend on the processing

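The direction of all 9 genes in the tau contrast and in the comparison over 27 mice held under the alternatives run in microglia-like nuclei, except Sall1 in the tau contrast outside the disease-associated and interferon subclusters (0.0032). Counts of called genes moved more. In the tau contrast 1 of 9 was called by DESeq2 (34 of 21510 genes called lower) and 5 of 9 without the low-count filter (198 of 21510). Leaving out 1 mouse gave 0 to 4 there. Over 27 mice 8 were called without the filter, where 624 of 21766 genes were called lower. There were 3 outside the disease-associated and interferon subclusters (230 of 9192 genes) and 0 in m0 alone (24 of 5341 genes). Leaving out 1 mouse gave 1 to 8, with 54 to 560 of all genes called lower. Of the 21 further homeostatic genes the same fits gave 0 to 13. Leaving out 1 mouse gave 0 to 0 calls among the 9 in the deletion and heterozygous contrasts, where these fits called 0 of all genes in microglia-like nuclei. Over the whole hippocampus it also gave 0 to 0 among the 9. The most genes called in any such fit there were 130 of 19001 higher and 3 lower, in the tau contrast. The difference in microglia-like share with tau was 1.43 percentage points as a share of UMIs, which passed, and 1.96 to 3.14 of nuclei on leaving out 1 mouse, of which 3.14, without replicate 3 of P301S Cgas+/+, passed. It was -1.26 to -0.046 for deletion and -1.74 to -0.57 for heterozygosity. The cause of these shifts was not tested.

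Differences by Cgas genotype in P301S mice were near 0, none being called, and for the genes named next they changed sign with the setting. With deletion, P2ry12 was at 0.00068 by the per-nucleus marker rule and 0.086 in m0, Tmem119 at 0.036 without the sex term, 0.0050 by the marker rule and 0.011 in m0, and Selplg at 0.093 without the sex term, 0.034 by the marker rule, 0.036 outside the state subclusters and 0.14 in m0. Sall1 was at -0.021 by the marker rule without gene limit or doublet removal. In heterozygotes, Cx3cr1 was at -0.015 without the filter, -0.0019 by the marker rule, -0.010 by that rule without gene limit or doublet removal and -0.043 outside the state subclusters. Csf1r was at -0.0054 without the filter and -0.0093 outside the state subclusters, Siglech at -0.021 without the filter and -0.054 in m0, and in m0 Tmem119 was at 0.031, Sall1 at -0.053 and Selplg at 0.093. Without the filter, Csf1r was at 0.012 in the tau-free deletion contrast and Cx3cr1 at -0.041 in the interaction of P301S with deletion. On leaving out 1 mouse, 73 of 873 values for single genes changed sign. Within microglia-like nuclei the ranges with deletion were -0.15 to 0.19 for P2ry12, -0.054 to 0.32 for P2ry13, -0.25 to 0.23 for Tmem119, -0.11 to 0.075 for Cx3cr1, -0.055 to 0.32 for Siglech, -0.016 to 0.23 for Sall1, -0.17 to 0.25 for Selplg and -0.23 to 0.44 for Fcrls. In the heterozygous contrast they were -0.15 to 0.20 for P2ry12, -0.024 to 0.38 for P2ry13, -0.31 to 0.18 for Tmem119, -0.13 to 0.11 for Cx3cr1, -0.064 to 0.13 for Csf1r, -0.13 to 0.26 for Siglech, -0.14 to 0.19 for Sall1 and -0.31 to 0.15 for Selplg. Over the whole hippocampus they were -0.026 to 0.26 for P2ry13 and -0.20 to 0.15 for Tmem119 in the tau contrast, -0.35 to 0.11 for P2ry13, -0.27 to 0.024 for Sall1 and -0.36 to 0.11 for Fcrls with deletion, and -0.46 to 0.043 for Fcrls in heterozygotes.

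No paired analysis was possible because the labels carry no replicate numbers, which were given here in accession order. Precision is limited by the tau-free groups of 2 mice, all of 1 sex, and for P2ry13 by a total of 636 UMIs in microglia-like nuclei.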
